A study of Nematostella vectensis with 136 samples.

Results

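The genes described here are the 100 whose levels ran most strongly opposite to those of the gene NVE12125 across libraries of *Nematostella vectensis*. They were chosen by the Pearson correlation of log2(CPM + 2) with that of NVE12125, where CPM is a gene's count scaled to a library total of 1000000, and they are the 100 most negative of 5527 genes with a mean of at least 20 CPM, out of 24384 genes in the table. RNA was taken from whole adult starlet sea anemones, and each library is 1 sample. In the LD arm, animals lived for 1 month under a light and dark cycle and were sampled every 4 h, at T1 to T6 under the cycle and at T7 to T17 after the cycle had been removed. In the DD arm, animals lived for 1 month in darkness and were sampled at the same 17 time points, in darkness throughout. Each of the 34 combinations of arm and time point had 4 replicates, A to D. No genetic alteration is named for either arm. The sources used here do not give the light conditions before that month, the number of animals in a sample or whether replicates were grown apart, so p-values cover only the spread between these samples, which may be technical.

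The starlet sea anemone is a small burrowing cnidarian of salt marshes whose daily activity follows the light cycle it lives in. In cnidarians, as in other animals, a light cycle sets the timing of many transcripts, and some of them lose their daily course when the cycle is gone. RNA from a whole animal mixes all of its tissues, so fewer cells of a type and less RNA per cell cannot be told apart in these data. A set of genes that goes up or down together from sample to sample is often called a co-expression module, and a module can be followed from sample to sample even where its members have no names.

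The identifiers carry no names here, and none of them matched the RefSeq gene table given for the species, so no role is given to any gene below and the labelled source, whole animals, could not be checked against marker genes. Totals of the 136 libraries, 68 per arm, ran from 2185 to 749294 counts with a median of 538017. Of these, 3 libraries had totals under the median divided by 3 and were left out of the choice of genes and of all values by library: LD T14 replicate D, DD T4 replicate B and DD T1 replicate D. The lowest total among the other 133 was 207665. Across those libraries, NVE12125 had a Pearson r of 0.193 with the log2 total and of 0.382 with the number of genes that had a count, which was 12421 to 18060. The mean level of the 100 genes had an r of 0.117 with the log2 total (n = 133 libraries for each). The part of depth in the results below was not tested.

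The correlations that chose the genes ran from -0.536 to -0.344, with a median of -0.378. Over all 5527 genes the median was 0.0033, and 2730 genes had a negative value. At the boundary, NVE20752 and NVE25371 were the last genes taken, both at -0.344, and NVE6525 and NVE9487 the first left out, both at -0.343. The boundary therefore cuts through a continuous series of values. By ranks the relation was shallower: Spearman's rho of the 100 genes had a median of -0.269 and lay between -0.379 and -0.103. These values describe how the genes were chosen and support nothing further. The genes were common transcripts, with mean levels of 21.6 to 2830 CPM and a median of 108 CPM, against a median of 44.5 CPM over all genes that could be chosen. Of the 100 genes, 9 averaged more than 1000 CPM, and 5 had a count of 0 in at least 1 library. From library to library they varied about as much as other genes, with a median SD of 0.52 in log2(CPM + 2), against 0.50 over all genes that could be chosen.

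NVE12125 was close to absent in most libraries and very high in a few. Its median was 1.68 CPM, and 9 libraries stood above 750 CPM, all of them LD. They were LD T8 replicate A with 1569 CPM, LD T9 replicate D with 1419 CPM, LD T7 replicate C with 1378 CPM, LD T6 replicate B with 1369 CPM, LD T8 replicate B with 1152 CPM, LD T14 replicate A with 1038 CPM, LD T9 replicate A with 1009 CPM, LD T9 replicate C with 1002 CPM and LD T7 replicate D with 769 CPM. Only 1 of these libraries, LD T6 replicate B, came from the period under the light cycle. In the DD arm the highest value of NVE12125 was 365.7 CPM, in T5 replicate B.

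In those 9 libraries nearly all of the 100 genes were low together. Between 90 and 100 of them lay below their own median over all libraries. The mean of log2(CPM + 2) over the 100 genes, called their mean level from here on, was 5.64 to 6.42 in the 9 libraries, beside a median of 7.06 over all 133. LD T8 replicate B had the lowest mean level of any library, 5.64. Gene by gene, 89 of the 100 lay below their own lower quartile in at least 7 of the 9 libraries, and 28 did so in all 9. Of all 5527 genes, 7.49% lay below their own lower quartile in at least 7 of the 9, and 0.760% in all 9. Since the genes were chosen for this course, these counts describe the fall and do not test it.

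**Figure D1:**
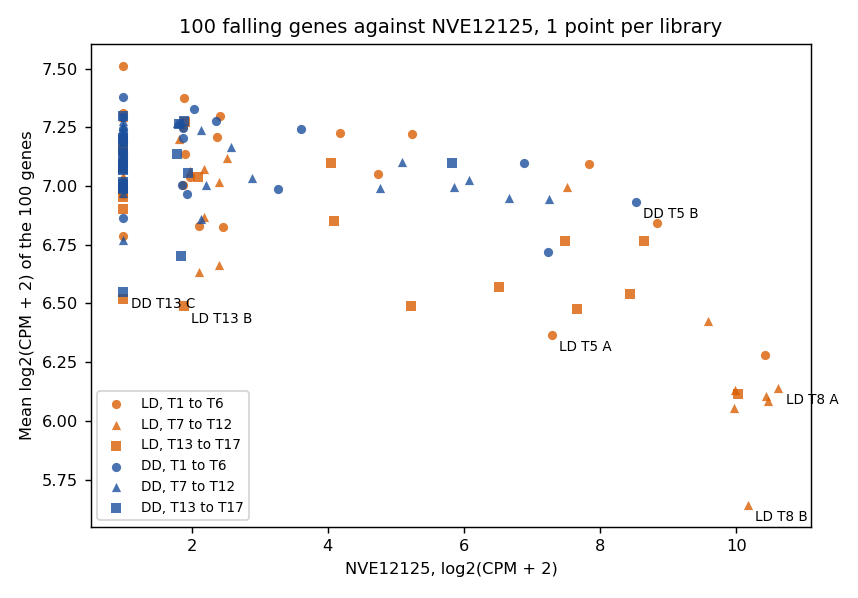
Each point is 1 of 133 libraries, with NVE12125 on the horizontal axis and the mean level of the 100 genes on the vertical axis, both in log2(CPM + 2); colour gives the arm and shape the period. The 9 libraries at the right, above 750 CPM of NVE12125, are all LD and have mean levels of 5.64 to 6.42, while libraries at the left lie mostly near 7.06.

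The fall could be read among replicates of the same arm and time point. In LD T8, replicates A and B had the high values of NVE12125, and replicates C and D had 1.95 and 0 CPM. The mean levels of the 100 genes were 6.14 and 5.64 in replicates A and B, against 7.06 and 7.10 in C and D. In LD T9, replicates A, C and D had the high values, and their mean levels were 6.13, 6.05 and 6.08, against 7.18 in replicate B, where NVE12125 was at 0. In LD T7, replicates C and D had mean levels of 6.10 and 6.42, against 7.12 in replicate A and 6.66 in replicate B. LD T7 replicate B had 3.30 CPM of NVE12125, so its lower level came without a high NVE12125. In LD T6 and LD T14 the library high in NVE12125 also had the lowest mean level of its group, 6.28 in T6 replicate B and 6.11 in T14 replicate A.

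Counted by gene, 86 of the 100 genes were lower in both high replicates of LD T8 than in both of the others, an order that 26.6% of all 5527 genes showed. In LD T9, 94 of the 100 were lower in A, C and D than in B, beside 34.8% of all genes. In LD T7, 56 of the 100 were lower in C and D than in A and B, beside 20.7% of all genes. All 3 orders held for 47 of the 100 genes and for 5.10% of all genes. These libraries took part in choosing the genes, so nothing is read from the counts beyond how evenly the fall was shared.

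**Figure D2:**
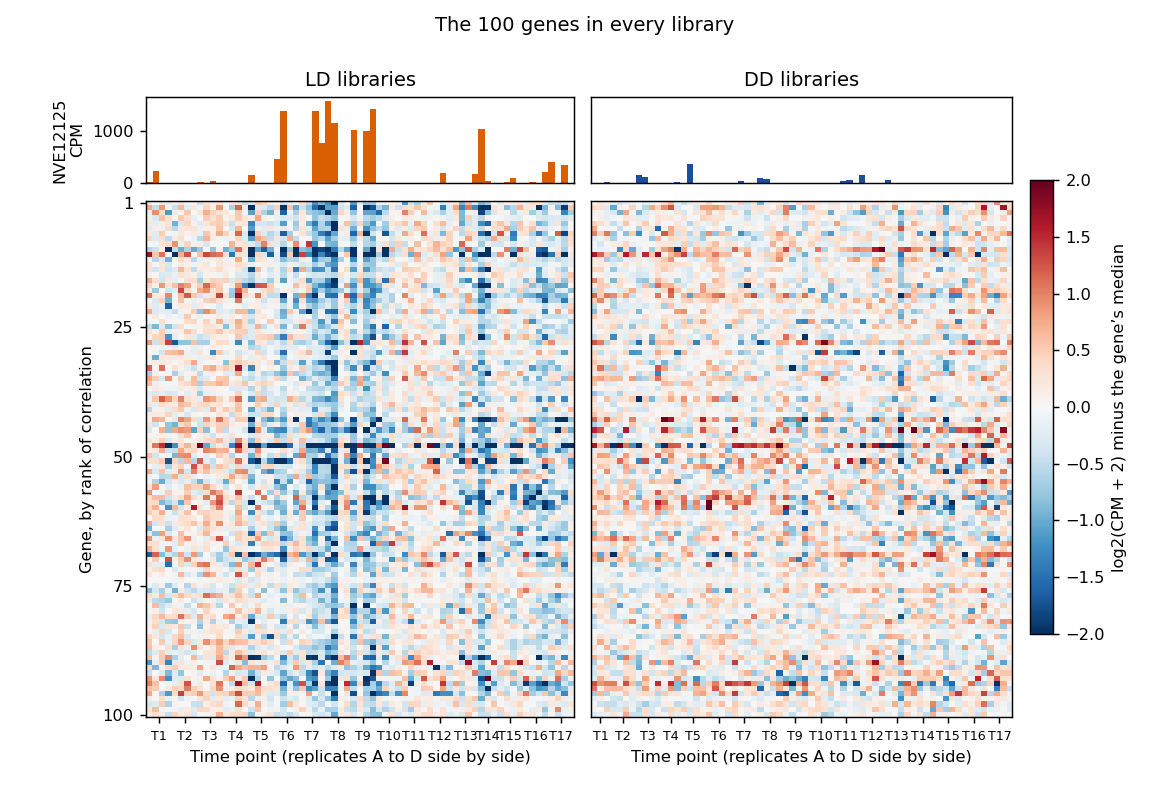
Each row is 1 of the 100 genes, in order of its correlation with NVE12125, and each column is 1 library, LD left and DD right; colour is log2(CPM + 2) minus the gene's median, cut at 2 either way, and the bars above give NVE12125 in CPM. Blue columns in LD stand under the high bars at T6, T7, T8, T9 and T14, and no DD bar passes 365.7 CPM.

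The 2 genes of most negative correlation were NVE18054 (r = -0.536) and NVE16364 (r = -0.506). NVE18054 had 28.02 and 9.19 CPM in replicates A and B of LD T8, against 54.5 and 69.6 CPM in C and D. In LD T9 it had 30.1, 39.1 and 40.05 CPM in replicates A, C and D, against 56.2 CPM in B. In LD T7 it had 28.1 and 34.6 CPM in C and D, against 86.3 and 46.1 CPM in A and B. In all 3 groups the libraries high in NVE12125 were the lower ones for NVE18054, without overlap. NVE16364 was likewise lower in the high libraries of each of these groups, with 24.7 and 24.5 CPM in replicates A and B of LD T8, against 40.9 and 44.5 CPM in C and D. In LD T9 it had 16.1, 9.20 and 14.8 CPM in A, C and D, against 56.2 CPM in B. Its lowest value was 0, in LD T14 replicate B, a library with 35.2 CPM of NVE12125.

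How far a gene fell was measured as the slope of its log2 CPM on that of NVE12125 within the 34 groups, with library sizes scaled by TMM, a method that sets aside genes with extreme ratios. A slope of -0.1 means a level lower by 0.1 on the log2 scale for each doubling of NVE12125. All 100 slopes were negative, from -0.21 to -0.024, with a median of -0.064 and a median standard error of 0.018. Over all 5527 genes the median slope was -0.0080. The same libraries chose the 100 genes, so the sign of their slopes and the distance from this median partly follow that choice. For the 100 genes of most positive correlation with NVE12125, called the burst genes here, slopes were 0.090 to 1.01. The fall of the 100 genes was thus shallow for each doubling of NVE12125, while NVE12125 itself ranged from 0 to 1569 CPM.

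The steepest slopes were those of NVE17412, -0.21 ± 0.041 (SE), and NVE23460, -0.21 ± 0.073. NVE17412 had 28.02 and 6.13 CPM in replicates A and B of LD T8, against 99.2 and 150.3 CPM in C and D. In LD T9 it had 18.1, 6.90 and 14.8 CPM in A, C and D, against 109.7 CPM in B. In LD T7 it had 15.6 and 40.2 CPM in C and D, against 266.5 and 41.2 CPM in A and B, so that D and B were nearly equal there. NVE23460 had 4.95 and 24.5 CPM in replicates A and B of LD T8, against 416.4 and 36.2 CPM in C and D. Its values also differed widely between C and D, which had 1.95 and 0 CPM of NVE12125, and over all libraries it ranged from 0 to 2004 CPM, the largest spread of the 100 genes (SD 2.09 in log2).

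NVE23459, the second most abundant of the 100 genes at a mean of 2584 CPM, has the identifier next to NVE23460, and the 2 genes moved together with an r of 0.884 over 133 libraries. Whether consecutive identifiers mark neighbouring genes, and whether reads could be shared between the 2, is not stated in the sources used here. NVE23459 had 82.2, 43.7 and 1054 CPM in replicates A, C and D of LD T9, against 3518 CPM in B. In LD T7 it had 138.9 and 33.3 CPM in C and D, against 2999 and 1631 CPM in A and B. The high libraries were lower in both groups, without overlap, and the 3 in LD T9 differed among themselves by more than an order of magnitude. A further pair of consecutive identifiers, singled out after its values were seen, had 1 gene on either side: NVE25375 is among the 100 and NVE25376 among the burst genes, with an r of -0.487 between them. Both were chosen for their correlation with NVE12125, so a negative value between them is in part set by the choice.

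The shallowest slopes were those of NVE6784, -0.024 ± 0.0076, which is also the most abundant of the 100 genes at a mean of 2830 CPM, and NVE9103, -0.024 ± 0.012. NVE6784 had 2092 and 1624 CPM in replicates A and B of LD T8, against 3045 and 3058 CPM in C and D. In LD T9 it had 2694, 2556 and 2382 CPM in A, C and D, against 2871 CPM in B. In LD T7 it had 2356 and 2499 CPM in C and D, against 2584 and 2779 CPM in A and B. The order held in all 3 groups, and it was a small fall in a gene that hardly varied elsewhere: its SD of 0.15 in log2 was the smallest of the 100 genes.

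**Figure D3:**
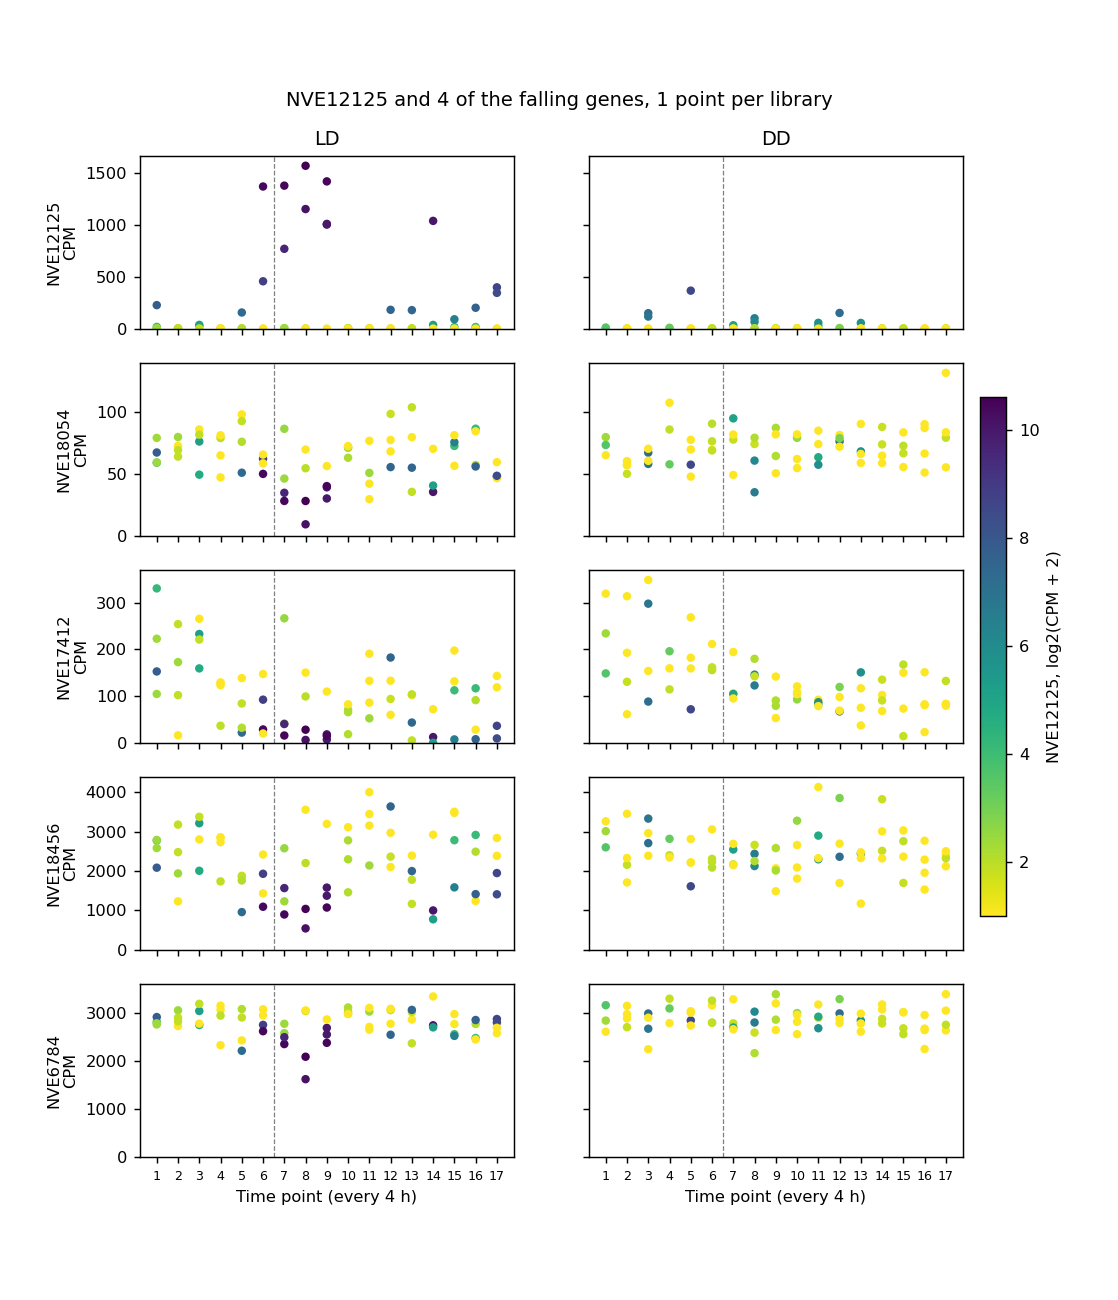
CPM of NVE12125 and of 4 of the 100 genes at each time point, LD left and DD right, 1 point per library, coloured by NVE12125 in log2(CPM + 2); the dashed line marks removal of the light cycle from LD. At T7 to T9 the dark points, libraries high in NVE12125, are low among the LD points, at 6.13 to 40.2 CPM for NVE17412 and 1624 to 2694 CPM for NVE6784.

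Scaling by total count lowers every other gene a little when some genes take up many counts, so the size of that effect was measured. In the 9 libraries the burst genes with NVE12125 took 1.88% to 4.46% of all counts, beside a median of 0.281% over all libraries. Their share above that median lowers every other gene by 0.023 to 0.062 on the log2 scale. The 100 genes fell by far more: their median deviation from their own medians in those libraries was between -1.13 and -0.46. The median deviation of the other genes that could be chosen was -0.13 to 0.075 in the same libraries. As a share of all counts, the 100 genes made up 1.36% to 2.17% of the 9 libraries, beside a median of 3.43% over all libraries. With other scaling all 100 slopes were still negative, with a median of -0.048 under RLE factors (a median-ratio method) and of -0.057 under total count. These slopes come from the libraries that chose the genes, so their sign is in part set by the choice. Chosen anew, 86 of the 100 genes were taken again under TMM, 82 under RLE factors and 94 with the burst genes left out of the totals.

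Where NVE12125 was at 100 to 500 CPM, in 12 libraries, the 100 genes were low in some and not in others. The number below their own median was 44 to 87 in the 8 LD libraries and 45 to 77 in the 4 DD libraries. LD T16 replicate D, with 200.7 CPM of NVE12125, had 87 of the 100 genes below their medians, and LD T5 replicate A, with 155.02 CPM, had 81. LD T1 replicate B, with 226.03 CPM, had 44, and DD T5 replicate B, with 365.7 CPM, had 58. DD T3 replicate A, with 148.3 CPM, had 77. Within this range, libraries with more NVE12125 were not always those with more low genes.

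Some libraries had low mean levels of the 100 genes with little or no NVE12125. LD T13 replicate B had a mean level of 6.49 at 1.69 CPM of NVE12125, LD T14 replicate B one of 6.49 at 35.2 CPM and LD T15 replicate C one of 6.57 at 89.9 CPM. LD T16 replicate C, with the mean level 6.52, and DD T13 replicate C, with 6.55, had no count of NVE12125. These last 2 libraries were also among the shallower ones, with totals of 213651 and 323477, and the other genes that could be chosen had median deviations of -0.32 and -0.35 in them, so there the 100 genes were low along with many others. The mean level and NVE12125 had an r of -0.701 over 133 libraries and of -0.664 without the 2 libraries farthest from the median of NVE12125. The rank correlation was -0.438. As the genes were chosen for their correlation with NVE12125, these 3 values carry no test.

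Within the arms, the correlations were more negative in LD. Among the 67 LD libraries all 100 genes had a negative correlation with NVE12125, with a median of -0.489, beside -0.024 over all 5527 genes. Among the 66 DD libraries 73 of the 100 had a negative correlation, with a median of -0.085 and a range of -0.446 to 0.242, beside a median of 0.040 over all genes. By lane, which here also means by time point, all 100 correlations were negative in both, as a choice on the pooled libraries makes probable: the median was -0.439 over T1 to T12, sequenced on lane 5, and -0.315 over T13 to T17, sequenced on lane 7. NVE18054 had an r of -0.592 in LD and -0.200 in DD. NVE18456, the fifth most negative gene at a mean of 2343 CPM, had -0.605 in LD and 0.053 in DD. Since NVE12125 reached at most 365.7 CPM in DD, the DD libraries cover a smaller range of it. All libraries of both arms and lanes took part in choosing the genes, so these correlations describe the genes and carry no test.

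**Figure D4:**
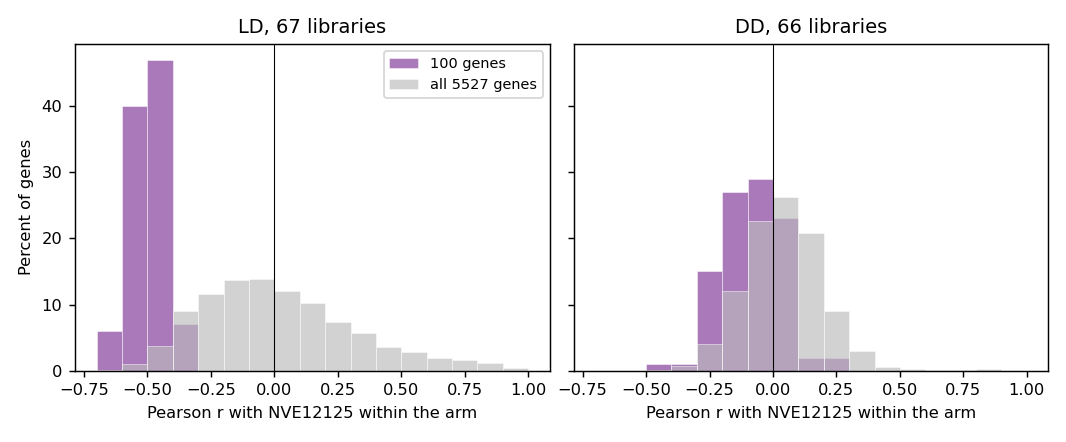
Distribution of Pearson's r with NVE12125 within LD (left, 67 libraries) and within DD (right, 66 libraries), as a percentage of the 100 genes and of all 5527 genes. In LD the 100 genes lie at the negative end with a median of -0.489, and in DD they overlap the bulk of all genes with a median of -0.085.

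The difference between the arms in the slope itself was tested across 10648 genes, with a slope on NVE12125 for each arm and 34 group means in an edgeR quasi-likelihood fit. None of the 100 genes passed an adjusted p of 0.05, and 0.00939% of all tested genes did. DESeq2 and limma-voom also called 0 of the 100, and at an unadjusted p under 0.05 there were 24 in edgeR, 22 in DESeq2 and 22 in limma-voom. Of all tested genes, 8.59%, 9.02% and 10.1% had an unadjusted p under 0.05 with these tools, in that order. The slope was more negative in LD for 90 of the 100 genes, with a median difference of -0.050, beside 0.0023 over all tested genes. The libraries above 750 CPM of NVE12125, all LD, took part in choosing the genes, so this direction is in part set by the choice. The largest differences were those of NVE23460, -0.25 ± 0.17 (SE; edgeR adjusted p = 0.709), and NVE17412, -0.185 ± 0.087 (adjusted p = 0.533). Fitted in each arm alone, the median slope was -0.076 in LD (median SE 0.0215), with 100 of 100 negative. In DD it was -0.030 (median SE 0.0334), with 80 of 100 negative. The slopes were thus closer to 0 in DD, where the median SE was larger than the size of the median slope. The difference passed the test for none of the 100 genes.

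Beyond NVE12125, the 100 genes held together only in part. The median correlation between pairs of them was 0.296, and 0.170 after the level of NVE12125 had been taken out. Average linkage on the remaining values, joined below a distance of 0.6, gave 3 subgroups of at least 5 genes. The first had 12 genes with a median correlation of 0.486 between them, led by NVE7999 and NVE7724. The second had 7 genes with 0.530, led by NVE897 and NVE18974, and the third 6 genes with 0.522, led by NVE18456 and NVE17412. The subgroups were formed from the same libraries, so their correlations are descriptions.

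The mean level of the second subgroup was lower in each later period in both arms, by differences within the SDs below between neighbouring periods. Over T1 to T6 its mean level was 6.46 ± 0.51 in the LD libraries (SD, n = 24) and 6.77 ± 0.42 in the DD libraries (n = 22). Over T7 to T12 it was 6.15 ± 0.74 in LD and 6.45 ± 0.44 in DD (n = 24 each), and over T13 to T17 it was 5.78 ± 0.51 in LD (n = 19) and 6.07 ± 0.60 in DD (n = 20). NVE897 averaged 40.5 ± 31.0 CPM in LD (n = 43) and 55.1 ± 34.4 CPM in DD (n = 44) over T7 to T17, after 63.3 ± 35.8 CPM in LD (n = 24) and 80.8 ± 36.4 CPM in DD (n = 22) over T1 to T6. The last period was sequenced on another lane, so period and lane cannot be told apart there. The first subgroup was lower in LD after removal, at a mean level of 7.03 ± 0.51 (n = 43), against 7.36 ± 0.28 in DD (n = 44), and was nearly equal before it, at 7.52 ± 0.42 (n = 24) in LD and 7.55 ± 0.26 (n = 22) in DD. After removal the other subgroups were lower in LD as well. The third was at 7.41 ± 0.76 in LD (n = 43), against 7.81 ± 0.37 in DD (n = 44), and the second at 5.98 ± 0.66, against 6.28 ± 0.55. Before removal the third was at 7.77 ± 0.54 in LD (n = 24) and 8.06 ± 0.33 in DD (n = 22). The same libraries chose the genes, so a lower level in LD is in part set by the choice. These subgroup levels were not tested.

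The 100 genes together had a mean level of 7.04 ± 0.29 in LD (n = 24 libraries, SD) and 7.12 ± 0.17 in DD (n = 22) while the light cycle was on. After its removal the mean level was 6.78 ± 0.41 in LD (n = 43) and 7.08 ± 0.16 in DD (n = 44). NVE12125 averaged 251.6 ± 464.5 CPM in LD and 11.6 ± 30.0 CPM in DD over those later time points, with medians of 2.52 and 0 CPM. After removal the SD of the mean level was larger in LD, where the libraries high in NVE12125 lay at the low end.

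Under the light cycle, 1 of the 100 genes differed between LD and DD, and it was lower in LD. NVE5329 averaged 123.4 ± 64.7 CPM in LD (SD, n = 24), with a range of 26.6 to 323.0, and 203.2 ± 108.5 CPM in DD (n = 22), with a range of 87.8 to 548.9, so the arms overlapped. Its mean was lower in LD at 6 of 6 time points, with a log2 difference of -0.80 ± 0.21 (SE) and an adjusted p of 0.0370 in edgeR's quasi-likelihood test over 10257 genes. Of all genes tested, 0.575% passed, and 0.0975% passed as lower in LD. Of the 100 genes, 67 had a difference below 0, beside 44.9% of all tested genes. The median of the 100 was -0.064, beside 0.023 over all tested genes. At an unadjusted p under 0.05 there were 14, beside 8.37% of all tested genes. With RLE factors 55 lay below 0, beside 33.5% of all tested genes, and with NVE12125 as a term in the fit 54, beside 47.0%. NVE12125 averaged 96.0 CPM in LD and 30.0 CPM in DD here, with medians of 1.83 and 0.81 CPM. These libraries took part in choosing the genes, so the direction is in part set by the choice. The call of NVE5329 was lost under 10 of 16 other settings, with adjusted p-values of 0.0193 to 0.478 over all 16; without replicate A of every group its log2 difference was -0.59, with the adjusted p of 0.478.

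After removal of the light cycle, 45 of the 100 genes were lower in LD than in DD and none was higher, where 8.42% of all tested genes passed, 5.75% as higher and 2.67% as lower. The log2 differences of the 45 ran from -0.19 to -1.35 with a median of -0.39. Over all 100 genes the median was -0.28, and 99 lay below 0; over all tested genes the median was 0.0055. Of the 45, 32 were lower in LD at 9 or more of the 11 time points. NVE12125 was itself higher in LD at these time points, and the same libraries chose the genes, so the direction is in part set by the choice and the count describes the genes. Of the calls over all genes 68.3% were higher in LD, 85.8% with RLE factors and 44.2% with limma-voom. Of the 100 genes, 31 were called with RLE factors and 47 with limma-voom, all lower.

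NVE23460 had the largest difference. It averaged 241.2 ± 362.8 CPM in LD (SD, n = 43), with a median of 106.3, and 496.4 ± 351.0 CPM in DD (n = 44), with a median of 454.2. Its values ranged from 0 to 2004 CPM in LD and from 2.99 to 1539 CPM in DD, so the arms overlapped over nearly their whole range. The log2 difference was -1.35 ± 0.33 (SE; edgeR adjusted p = 0.00401), and the adjusted p ran from 0.000806 to 0.265 over 16 other settings, of which 3 ended the call. Those were the fit without replicate D, with an adjusted p of 0.0860, and the 2 settings for NVE12125 given below, with 0.133 and 0.265.

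NVE4448 averaged 159.5 ± 95.9 CPM in LD (SD, n = 43), with a range of 32.1 to 399.1, and 287.4 ± 190.04 CPM in DD (n = 44), with a range of 77.6 to 902.7. Its log2 difference was -0.93 ± 0.18 (SE; edgeR adjusted p = 0.000216), lower in LD at 9 of 11 time points. It passed under all 16 other settings tried for it, at adjusted p-values of 6.4e-05 to 0.0412.

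By lane, 17 of the 100 genes were lower in LD over T7 to T12 on lane 5, where 4.09% of all tested genes passed, 0.731% as lower, and 7 were lower over T13 to T17 on lane 7, where 2.1% passed, 0.517% as lower. The medians of the 100 genes were close, -0.26 and -0.29. NVE5412 led over T7 to T12 with a log2 difference of -1.13 ± 0.22 (SE; edgeR adjusted p = 0.00146), followed by NVE8041 with -0.98 ± 0.24 (adjusted p = 0.00885). NVE8041 was lower in LD at 11 of 11 time points of T7 to T17 and averaged 70.5 ± 48.3 CPM in LD (SD, n = 43) and 124.6 ± 52.5 CPM in DD (n = 44). Over T13 to T17 NVE4448 had a log2 difference of -1.22 ± 0.27 (adjusted p = 0.00572) and NVE5421 one of -1.02 ± 0.25 (adjusted p = 0.0125).

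With the log2 level of NVE12125 as a term in the same fit, 6 of the 100 genes were still lower in LD over T7 to T17, where 0.458% of all tested genes passed, and all 6 were among the 45. The median difference of the 100 genes was -0.15 with the term, against -0.28 without it, 88 lay below 0 and 95 came closer to 0. NVE4448 had -0.79 (adjusted p = 0.0183) and NVE8041 -0.77 (adjusted p = 0.0184). NVE23460 still had -1.11, not past the threshold. Without the 15 libraries highest in NVE12125, 1 of the 100 genes was called, NVE4448 with -0.84 (adjusted p = 0.0412), where 0.206% of all tested genes passed. The median of the 100 genes was then -0.12, and 85 lay below 0; over all tested genes the median was -0.036, and 58.2% lay below 0. As the genes were chosen for their correlation with NVE12125, smaller differences under both settings are in part set by that choice. Of the 15 libraries, 14 are LD, and 11 of those come from T7 to T17.

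**Figure D5:**
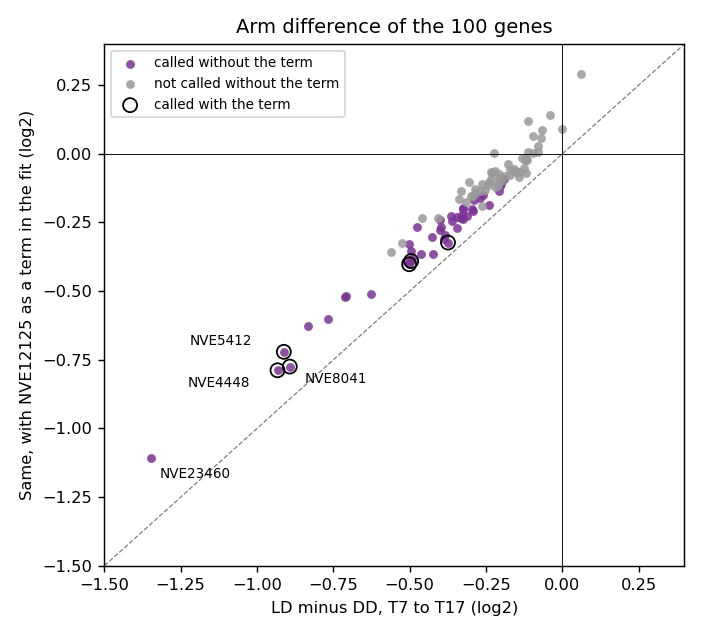
Log2 difference LD minus DD over T7 to T17 for each of the 100 genes, without (horizontal) and with (vertical) NVE12125 as a term in the edgeR fit; the dashed line marks equal values. Purple points are the 45 genes called without the term and circles the 6 called with it; 95 of the 100 genes come closer to 0 with the term.

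A daily course was looked for as the 24 h component of a gene's level, fitted to the group means as a cosine and a sine. In LD under the light cycle none of the 100 genes passed, in edgeR, DESeq2 or limma-voom, where 0.136% of all tested genes passed in edgeR. At an unadjusted p under 0.05 in edgeR there were 22 of the 100, beside 12.4% of all tested genes. In DD over T7 to T17 none passed with any of these tools either, where 0.0682% of all tested genes passed in edgeR. There, 10 of the 100 had an unadjusted p under 0.05 in edgeR, close to the 9.39% of all tested genes.

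In LD over T7 to T17, 21 of the 100 genes had a 24 h component, where 8.75% of all tested genes did. All 21 were lowest between 0 and 8 h of the cycle counted from T1, at 1.90 to 6.77 h with a median of 3.90 h, and NVE12125 itself peaked at 4.50 h. Those hours hold T7 to T9, with 7 of the 9 libraries above 750 CPM of NVE12125. They also hold T13 to T15, with LD T14 replicate A, another of the 9. These libraries also chose the genes, so a low level at the hours when NVE12125 was high, and with it the count of 21, is in part set by the choice. Among the 21 genes, the largest amplitude in the edgeR fit was that of NVE10701, 0.62 ± 0.14 (log2, SE; edgeR adjusted p = 0.00710). It averaged 15.4 ± 4.68, 15.7 ± 10.7 and 14.9 ± 15.3 CPM at T7, T8 and T9 (SD, n = 4 each), then 30.5 ± 11.9, 30.0 ± 5.90 and 34.1 ± 16.6 CPM at T10, T11 and T12. NVE21409 had an amplitude of 0.58 ± 0.16 (adjusted p = 0.0275 in edgeR), at 7.91 ± 4.89 CPM at T8 and 38.2 ± 17.0 CPM at T11 (SD, n = 4 each).

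The number of calls changed with a few libraries. Without LD T8 replicate A 6 of the 100 genes were called, without LD T8 replicate B 11, and without replicate A of every group 0. Of all tested genes, 2.81%, 5.29% and 0.0192% passed in these fits, in that order. With NVE12125 as a term in the fit, or without the 15 libraries highest in it, the count was 0, and with a linear trend in the fit it was 1. DESeq2 called 5, where 12.5% of all tested genes passed, and limma-voom 23, where 3.07% passed. With RLE factors 7 were called, where 16.1% of all tested genes passed, and with library size alone 14, where 12.2% passed. The share among the 100 genes was thus below that over all tested genes with DESeq2 and with RLE factors. The median amplitude of the 100 genes was 0.25 with all libraries, 0.22 without LD T8 replicate A, 0.23 without LD T8 replicate B, 0.21 without replicate A of every group and 0.23 with the linear trend. It was 0.18 with NVE12125 as a term and 0.13 without the 15 libraries. Over all tested genes it was 0.20 with all libraries and 0.18 with the term. Without the 15 libraries it was 0.23, over 12161 tested genes. NVE10701 had 0.62 without LD T8 replicate A and 0.58 without LD T8 replicate B. Adjusted p-values ranged from 0.00832 to 0.638 for NVE10701 and from 0.0184 to 0.733 for NVE21409 over 17 other settings.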

How the data were processed

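The authors deposited 1 table of whole-number counts per gene without normalization; Bowtie2 is named without a version in the submitters' processing notes, and the labels cite Putnam et al. for the genome. How reads were counted, with which strand setting and gene models, and what became of shared reads is not given in the sources used here. The genes and lists were chosen with earlier results of these data known.

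CPM were computed from column totals and log2 values with 2 added; 3 libraries below the median total divided by 3 were left out. Tests used edgeR 4.0.16 in R 4.3.3: filterByExpr over 34 groups, TMM factors and quasi-likelihood fits with group means to all 136 libraries (133 for the slope difference), with Benjamini-Hochberg adjustment over all tested genes and a threshold of 0.05. The SE of an amplitude is its value over the square root of 2F, with F the test statistic. Fits were tested on simulated data. Alternatives used DESeq2 1.42.0, limma-voom (limma 3.58.1), other scaling, filters and subsets of libraries. No pairing of LD with DD libraries by replicate letter was seen. Over 65 same-letter pairs, correlations of deviations from group means were -0.209 to 0.298, with a median of -0.005 and 12 over 0.1. Low correlations cannot show that libraries of 1 letter were handled apart. Counts of replicates differed beyond sampling noise (the lowest chi-square over its degrees of freedom was 2.93), and no library was merged with another.

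Named genes were the 2 of most negative correlation, the 2 steepest and 2 shallowest slopes, the 2 most abundant, those at the boundary, at most 2 called genes in each direction per test by log2 difference (2 per 24 h test by amplitude, 2 for the slope difference) and 2 per subgroup, beside NVE12125.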

Additional observations from a re-analysis of the deposited data

Results flagged for a closer look

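In each of 31 groups with 4 libraries, the highest or lowest mean level of the 100 genes was set against the other 3; 5 libraries stood apart, where chance gives about 1 in 20 groups. LD T9 replicate B was high, at 7.18 against 6.05 to 6.13 in the other replicates, which are the 3 libraries of that group with over 1000 CPM of NVE12125. LD T15 replicate C was low, at 6.57 against 7.08 to 7.10. DD T13 replicate C was low, at 6.55 against 7.10 to 7.20. DD T7 replicate A was high, at 7.27 against 7.10 in each of the others, and DD T11 replicate A was high, at 7.23 against 6.99 to 7.02.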

How the results depend on the processing

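Which genes are taken depends on the libraries used and on the measure of correlation. Of the 100 genes, 49 were taken by Spearman's rho, 50 with all 136 libraries, 61 on LD alone, 8 on DD alone, 62 on T1 to T12, 31 on T13 to T17, 15 without the 15 libraries highest in NVE12125, 54 on deviations from the group means and 47 with the replicate letter as a block as well; leaving out each replicate letter gave 62 to 76, and leaving out LD T8 replicate A or B, chosen after seeing the data, 87. The median slope was -0.082 with a prior count of 10 and -0.030 on DD alone (chosen after seeing the data), and -0.065 with the replicate block; without each letter it was -0.069 to -0.064. For LD minus DD over T1 to T6, where 1 of the 100 genes was called, the count was 0 with library size alone, no filter beyond 1 count, the replicate block, limma-voom and NVE12125 as a covariate, 2 with a filter of 10 counts, without the 15 libraries and without LD T8 replicate B, and 0 without each letter. Over T7 to T17, where 45 were called, it was 17 to 34 without each letter (D, A and C gave 17, 22 and 26), 38 and 36 without LD T8 replicate A or B, 6 with NVE12125 as a covariate, 1 without the 15 libraries, 17 over T7 to T12, 7 over T13 to T17, and 44 with the replicate block. For the 24 h component in LD over T7 to T17, where 21 were called, it was 7 with RLE factors, 9 with no filter, 5 with DESeq2, 0 with the covariate, 0 without the 15 libraries, 6 and 11 without LD T8 replicate A or B, 1 with a linear trend, 0 to 27 without each letter and 20 with the replicate block. In that test, 16.1% of all tested genes passed with RLE factors, 2.69% with no filter and 12.5% with DESeq2. The count stayed at 0 for the slope difference in all 13 settings and for the other 24 h tests in all 17. The causes were not tested. For NVE5329, NVE23460 and NVE4448 no setting reversed the direction of LD minus DD. Over T7 to T17, 99 of the 100 genes lay below 0, 88 with the covariate and 85 without the 15 libraries. At a median total of 538017, a gene at 20 CPM has few counts per library, which limits what can be seen in the rarest of the 100 genes.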
